A study of Mus musculus with 12 samples.

Results

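A set of 10 signature genes of T and natural killer (NK) cells were followed in RNA sequencing of whole mouse hearts after acute myocardial infarction (AMI). The 10 genes were picked by symbol from the 53801 genes of the count and TPM matrices, and each symbol matched a single identifier in both. They comprise the CD3 chains *Cd3e*, *Cd3d*, and *Cd3g*, the coreceptors *Cd4* and *Cd8a*, the regulatory genes *Foxp3* and *Ctla4*, and the cytotoxic granule genes *Gzma*, *Gzmb*, and *Nkg7*. The hearts came from adult male C57BL/6N mice with no engineered allele named in the labels. Sham hearts had surgery without the infarct, and AMI hearts were taken 1 day or 7 days after ligation of the left coronary artery. Each group had 4 hearts, with 1 library per heart, and hearts are given by group and replicate number. The day of sham harvest is not given in the sources used here. Whole hearts were used, so cells of the infarct, the border, and the remote muscle were measured together.

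T cells recognize antigen through a receptor whose signaling part is the CD3 complex, so CD3 chains mark nearly all T cells. CD4 marks helper T cells and also some macrophages and dendritic cells, while CD8 alpha marks killer T cells and some dendritic cells. FOXP3 is the transcription factor of regulatory T cells, and CTLA-4 is an inhibitory receptor of activated and regulatory T cells. Granzymes are proteases that cytotoxic T cells and NK cells release from granules, and NKG7 is a membrane protein of those granules. Lymphocytes are scarce in the healthy heart and gather in the infarct after the early wave of neutrophils and monocytes.

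By day 7 AMI, 9 of the 10 genes had a higher mean level than in sham hearts, and *Ctla4* had a lower one. *Cd3e*, *Gzma*, and *Gzmb* were called higher than sham already on day 1 AMI, of which the *Gzmb* call held without each heart in turn. With sham and day 1 AMI hearts fitted alone, *Cd3e* and *Gzmb* had too few counts to be tested and *Gzma* was not called. Between day 1 and day 7, *Cd3g* and *Cd8a* were called higher, and the *Cd8a* call was lost in 5 of 8 fits without a heart. The levels were low throughout: no member passed 87 counts in a heart, in libraries of 23204551 to 32166517 counts. Values are given as raw counts and as CPM, counts brought to a common library total after scaling with the trimmed mean of M values (TMM), with factors from 0.781 to 1.17. A count of 3, taken as the floor of a library, was between 0.0895 and 0.156 CPM, which allows for counting error only. Genes were called differentially expressed (DEGs) at a fold change (FC) of at least 2 with an adjusted p below 0.05 in edgeR's quasi-likelihood test over 15306 genes. The p-values set a difference between groups against the spread between hearts within groups, which was estimated over all 3 groups together. In RNA from whole hearts, more cells of a type and more RNA per cell cannot be told apart.

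**Figure D1:**
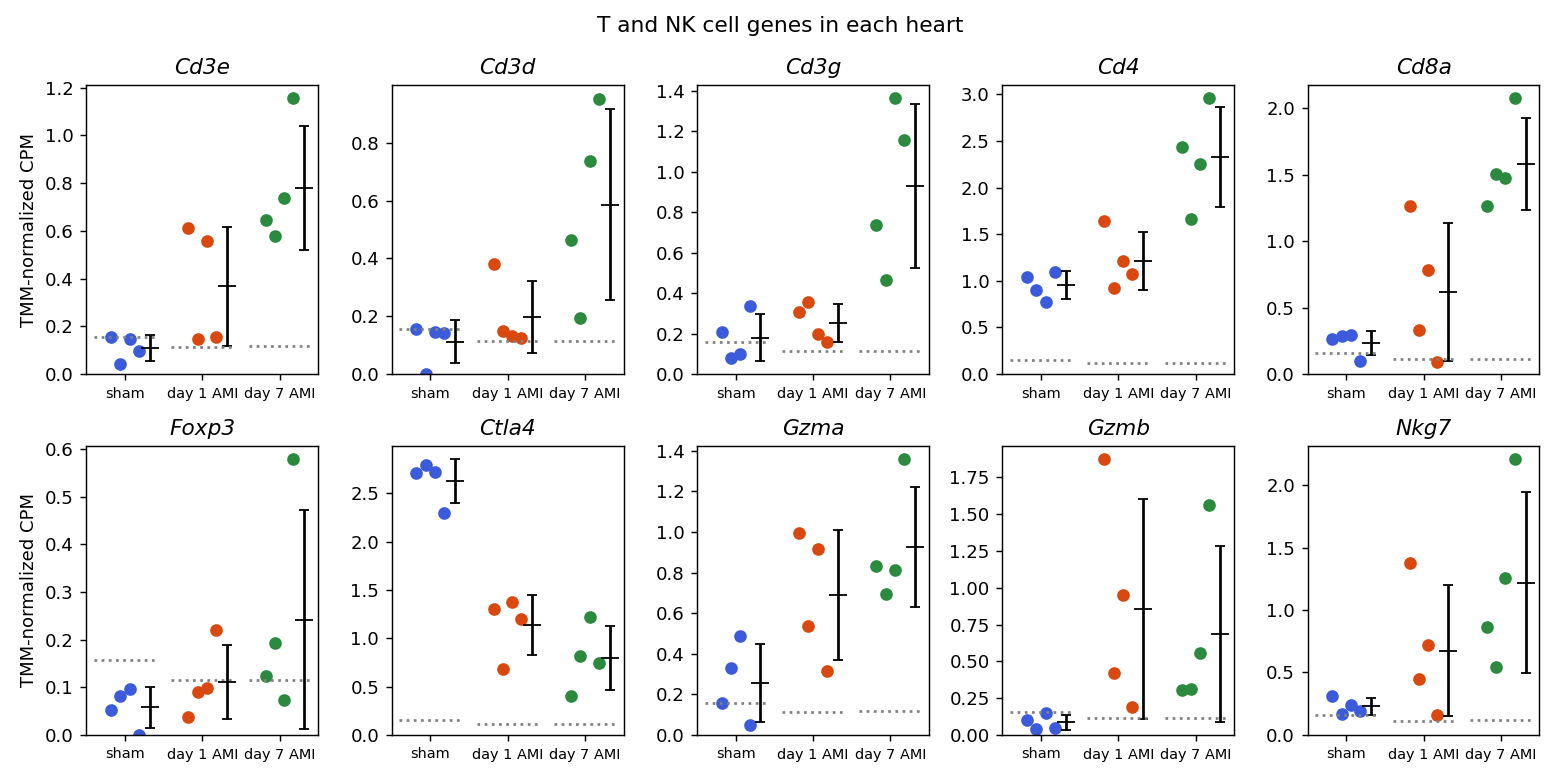
TMM-normalized CPM of each gene (vertical axis, separate scale for each gene) in the 4 sham, 4 day 1 AMI, and 4 day 7 AMI hearts (points, replicates 1 to 4 from left to right), with mean ± SD (black) and the highest floor of 3 counts in the group (dotted). Most genes sit near the floor in sham hearts and highest in day 7 AMI, while *Ctla4* falls from 2.63 CPM in sham to 0.794 CPM in day 7 AMI.

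Of the 10 genes, 8 passed edgeR's filter on low counts, and *Cd3d* and *Foxp3* did not. In day 1 AMI, 3 of these 8 were called higher than sham and 1 lower, beside 7.79% of all tested genes higher and 2.98% lower. In day 7 AMI, 7 of the 8 were called higher than sham and 1 lower, beside 15.3% and 5.88% of all tested genes. Between day 7 AMI and day 1 AMI, 2 of the 8 were called higher and 0 lower, beside 8.55% and 2.69%. The count of 0 holds for edgeR and for every alternative run. In the edgeR fit of all hearts, 0 members had an unadjusted p under 0.05 for a lower level. In edgeR fits without a heart, the adjusted p of *Ctla4* went down to 0.04965. Its log2 FC in those fits was from -0.807 to -0.295, short of a FC of 2. The median log2 FC of the 8 was 1.37 in day 1 AMI and 2.39 in day 7 AMI against sham, and 0.91 between the 2 AMI groups. The median over all tested genes was -0.01, 0.03, and 0.02. Scaling by library sizes alone moved these medians to 0.26, 0.42, and 0.15, and the share of higher genes among all DEGs from 72.3% to 89%, from 72.3% to 92%, and from 76.1% to 84.7%. A gene that passed the filter through the group where it is high is favored in such counts.

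**Figure D2:**
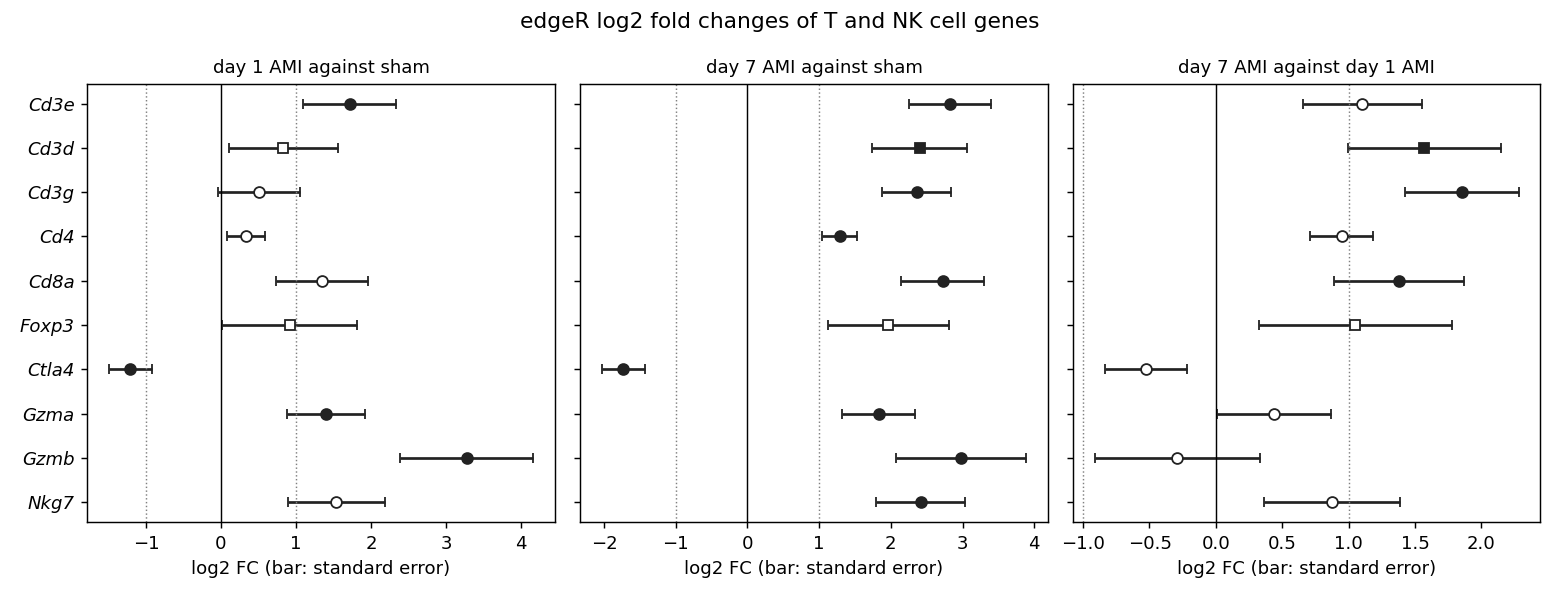
The log2 FC of each gene (horizontal axis, bars for the standard error) in 3 comparisons of 4 hearts against 4. Circles are genes that passed the filter, squares are *Cd3d* and *Foxp3* from the fit without it, filled symbols are DEGs, and dotted lines mark a FC of 2. *Gzmb* is the farthest to the right on day 1 AMI at 3.27, and *Ctla4* lies to the left of 0 in each comparison.

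The DNA upstream of *Gzmb*, *Gzma*, *Nkg7*, and *Ctla4* is shown because the 3 granule genes ranked the day 1 AMI hearts in the same order, as *Cd8a* did, while *Ctla4* ran the other way after AMI. Of the 10 genes, 9 had an entry in the RefSeq promoter table (GRCm38.p6), and *Cd4* was without one. The 250 bases before each start are given 5′ to 3′ on the strand of the gene. For *Nkg7*, they stop where an annotated exon begins, which leaves 185 bases. Capitals mark the letters TGTGGT, or ACCACA where they lie on the other strand, the core bound by RUNX factors that act in T and NK cells. These sequences are chr14:56262335-56262584 on the minus strand for *Gzmb*, chr13:113100982-113101231 on the minus strand for *Gzma*, chr7:43436888-43437072 on the plus strand for *Nkg7*, and chr1:60908775-60909024 on the plus strand for *Ctla4*.
Gzmb: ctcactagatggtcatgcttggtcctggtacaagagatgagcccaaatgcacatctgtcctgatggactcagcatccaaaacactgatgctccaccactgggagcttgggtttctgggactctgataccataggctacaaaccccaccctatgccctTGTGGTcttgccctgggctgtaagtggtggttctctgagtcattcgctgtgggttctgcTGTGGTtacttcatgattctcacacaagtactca
Gzma: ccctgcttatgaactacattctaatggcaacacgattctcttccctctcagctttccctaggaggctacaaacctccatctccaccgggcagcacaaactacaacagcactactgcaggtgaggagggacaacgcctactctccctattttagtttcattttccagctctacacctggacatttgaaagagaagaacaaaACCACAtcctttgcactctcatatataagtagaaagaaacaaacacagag
Nkg7: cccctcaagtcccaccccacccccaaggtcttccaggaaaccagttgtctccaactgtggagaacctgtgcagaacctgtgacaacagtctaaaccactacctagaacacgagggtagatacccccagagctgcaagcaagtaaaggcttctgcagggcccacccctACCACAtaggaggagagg
Ctla4: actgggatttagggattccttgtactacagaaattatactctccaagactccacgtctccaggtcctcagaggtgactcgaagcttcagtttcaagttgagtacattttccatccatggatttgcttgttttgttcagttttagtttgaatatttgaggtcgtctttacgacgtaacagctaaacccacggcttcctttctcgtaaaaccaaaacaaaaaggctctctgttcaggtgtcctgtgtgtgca
The core was found at bases 158 and 217 of the *Gzmb* sequence, base 201 of *Gzma*, and base 168 of *Nkg7*, counted from the 5′ end of each. It was not in the 250 bases before *Cd3e*, *Cd3d*, *Cd3g*, *Cd8a*, *Ctla4*, or either start of *Foxp3*. On both strands, 14.0% of 32851 RefSeq promoters held it. The other motifs searched on both strands were the NFAT core GGAAAA (in 20.4% of promoters), the ETS core AGGAAG (29.5%), the E-box CAGCTG (13.0%), and the TATA box TATAAA (12.4%). The ETS core lay before *Cd3e*, *Cd3d*, *Ctla4*, and the downstream start of *Foxp3*, and the NFAT core before *Gzma*, *Ctla4*, and the same start of *Foxp3*. For *Nkg7* the ETS core lay past the bases shown, in the annotated exon. A match describes the letters and not a bound site.

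The 3 CD3 genes lie side by side on chromosome 9 (GRCm38). *Cd3g* spans 44969572 to 44980431 on the minus strand, *Cd3d* spans 44981786 to 44987339 on the plus strand, and *Cd3e* spans 44998740 to 45009627 on the minus strand. The starts of *Cd3g* and *Cd3d* are 1355 bases apart and point away from each other. No stretch of 75 bases in the transcripts of the 3 genes is shared with another gene, although 3.31% of the exon bases of *Cd3e* overlap an antisense gene, *Gm48719*. The strand counted is not given in the sources used here.

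*Cd3e*, the epsilon chain, had 3, 1, 3, and 2 counts in the 4 sham hearts, 16, 5, 17, and 5 in day 1 AMI, and 21, 15, 20, and 34 in day 7 AMI. The sham hearts were at or under the floor, replicates 1 and 3 of day 1 AMI stood above replicates 2 and 4, and the day 7 AMI hearts were above every sham heart. The level was 0.110 ± 0.0528 CPM (SD, n = 4) in sham, 0.369 ± 0.250 CPM in day 1 AMI, and 0.780 ± 0.259 CPM in day 7 AMI. Against sham, the log2 FC was 1.72 ± 0.62 (SE) on day 1 (adjusted p = 0.0384) and 2.82 ± 0.57 on day 7 (adjusted p = 0.000702). Because sham held 9 counts in all, the ratio of summed counts carried a 95% exact interval (Clopper-Pearson, counting error only) of 1.60 to 7.77 on day 1 and 3.73 to 16.7 on day 7. The day 1 call was lost when sham replicate 2, 3, or 4, or day 1 AMI replicate 1 or 3, was left out, with adjusted p from 0.0182 to 0.111 over the 8 fits. The day 7 call held in each of the 8 fits without a heart. Between day 7 and day 1 the log2 FC was 1.10 ± 0.45 (adjusted p = 0.0558), which did not pass, and it passed without day 1 AMI replicate 1 or 3.

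*Cd3g*, the gamma chain, was called on day 7 and not on day 1, and whether its course differed from that of *Cd3e* was not tested. Its counts were 4, 2, 2, and 7 in sham, 8, 12, 6, and 5 on day 1 AMI, and 24, 12, 37, and 34 on day 7 AMI. The sham and day 1 AMI hearts overlapped, and in CPM each day 7 AMI heart was above both. The level went from 0.181 ± 0.117 CPM in sham and 0.255 ± 0.0933 CPM in day 1 AMI to 0.931 ± 0.406 CPM in day 7 AMI. *Cd3g* was not called on day 1 (log2 FC 0.51 ± 0.55, adjusted p = 0.483), and rose on day 7 against sham (2.36 ± 0.48, adjusted p = 0.000759) and against day 1 (1.86 ± 0.43, adjusted p = 0.00296). These calls held without each heart in turn.

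*Cd3d*, the delta chain, had 3, 0, 3, and 3 counts in sham, 10, 5, 4, and 4 on day 1 AMI, and 15, 5, 20, and 28 on day 7 AMI. It was under the filter and was tested in the fit without one, over 26544 genes, where 10.3% were called higher on day 7 against sham and 5.79% against day 1. In that fit the log2 FC was 0.83 ± 0.73 on day 1 (adjusted p = 0.473), 2.40 ± 0.66 on day 7 against sham (adjusted p = 0.00553), and 1.57 ± 0.58 on day 7 against day 1 (adjusted p = 0.0465). The latter 2 passed both thresholds. Summed over the 3 chains, the sham hearts held 10, 3, 8, and 12 counts, the day 1 AMI hearts 34, 22, 27, and 14, and the day 7 AMI hearts 60, 32, 77, and 96. The sum separated the day 7 AMI hearts from sham, with day 7 AMI replicate 2 the lowest of its group.

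Both coreceptors were called higher on day 7 against sham and neither on day 1, and *Cd8a* also against day 1. *Cd4* (chromosome 6, 124864692 to 124888221) had 20, 22, 16, and 23 counts in sham, 43, 31, 37, and 34 on day 1 AMI, and 79, 43, 61, and 87 on day 7 AMI. In CPM, the sham and day 1 AMI hearts overlapped, at 0.956 ± 0.145 and 1.21 ± 0.310, and the day 7 AMI hearts stood above both at 2.33 ± 0.535. The log2 FC was 0.34 ± 0.26 on day 1 (adjusted p = 0.311) and 1.28 ± 0.25 on day 7 (adjusted p = 0.000474). Between day 7 and day 1 it was 0.95 ± 0.24 (adjusted p = 0.00458), which passed the adjusted p but not a FC of 2. It passed both without day 1 AMI replicate 1 or day 7 AMI replicate 2. *Cd4* had the most counts of the members in the 2 AMI groups together and the smallest change on day 7.

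*Cd8a* (chromosome 6, 71373427 to 71379173) had 5, 7, 6, and 2 counts in sham, 33, 11, 24, and 3 on day 1 AMI, and 41, 39, 40, and 61 on day 7 AMI. The day 1 AMI hearts were split: replicate 1 was 13.3-fold above replicate 4, which was as low as the lowest sham heart. The mean was 0.234 ± 0.0931 CPM in sham, 0.617 ± 0.517 CPM in day 1 AMI, and 1.58 ± 0.347 CPM in day 7 AMI. *Cd8a* did not pass on day 1 (log2 FC 1.34 ± 0.62, adjusted p = 0.0945), and rose on day 7 against sham (2.73 ± 0.58, adjusted p = 0.000977). The rise from day 1 to day 7 (1.38 ± 0.49, adjusted p = 0.0314) was lost in 5 of 8 fits without a heart, namely day 1 AMI replicate 2 or 4 or day 7 AMI replicate 2, 3, or 4, with adjusted p up to 0.0862. *Cd8b1*, the beta chain of the same coreceptor, was higher at both times, with log2 FCs of 2.08 ± 0.53 (adjusted p = 0.00615) and 2.80 ± 0.50 (adjusted p = 0.000261).

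*Foxp3* stayed near the floor. It had 1, 2, 2, and 0 counts in sham, 1, 3, 3, and 7 on day 1 AMI, and 4, 5, 2, and 17 on day 7 AMI, so 17 of the 28 day 7 counts came from replicate 4. In the fit without the filter, the log2 FC was 0.92 ± 0.90 on day 1 (adjusted p = 0.539) and 1.97 ± 0.85 on day 7 (adjusted p = 0.0789). The change did not pass the test over hearts, while the ratio of summed counts had a 95% interval of 1.58 to 13.8 on day 7 from counting error alone, which leaves out the spread between hearts. *Foxp3* (chromosome X, 7573644 to 7595245) shares 18.6% of its exon bases with *Flicr* on the same strand, and 12.5% of its 75-base stretches occur in *Flicr* transcripts. It also overlaps exons of *Ccdc22*, *Gm36995*, and *Ppp1r3f* on the other strand, so its few counts are uncertain.

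*Ctla4* ran against the other members. It had 52, 68, 56, and 48 counts in sham, 34, 23, 42, and 38 on day 1 AMI, and 13, 21, 33, and 22 on day 7 AMI. Every sham heart, at 2.29 to 2.79 CPM, was above every AMI heart, of which the highest was 1.37 CPM. The means were 2.63 ± 0.226 CPM in sham, 1.14 ± 0.311 CPM in day 1 AMI, and 0.794 ± 0.335 CPM in day 7 AMI. The log2 FC was -1.21 ± 0.29 on day 1 (adjusted p = 0.00439) and -1.73 ± 0.30 on day 7 (adjusted p = 0.000192), and both calls held without each heart in turn. On day 1 the log2 FC was -0.94 under library sizes alone and -0.85 in limma on log2(TPM + 0.1), where the call ended because it was short of a FC of 2. The 2 AMI groups did not differ by the test on all hearts (-0.53 ± 0.31, adjusted p = 0.175). Over the 8 fits without a heart the adjusted p was from 0.04965 to 0.416, and the change stayed short of a FC of 2.

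The counts of *Ctla4* were checked against its annotation (chromosome 1, 60887000 to 60915832, plus strand). None of its 75-base stretches occurs in another gene and no exon overlaps another gene. Dividing the count by the TPM of a gene gave an estimate of the length RSEM assigned to it in a heart. It was set on the scale of 717 to 905 genes with a single transcript, with 250 bases taken off each of their lengths and added back. The tool behind the counts is not given, so the estimate takes counts and TPM to rest on the same reads. For *Ctla4* that length was between 1788 and 1939 bases in the 12 hearts, with a median of 1925. Its annotated transcripts are *Ctla4-201*, coding and 1933 bases long, *Ctla4-203*, noncoding and 691 bases, and *Ctla4-202*, coding and 614 bases. If counts and TPM rest on the same reads, RSEM placed those of the sham hearts mainly on a transcript of about the length of *Ctla4-201*. For *Cd4*, the same length varied from 1607 to 3117 bases between hearts, beside a coding transcript of 3108 bases and a retained intron transcript of 1647 bases.

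*Gzmb* (chromosome 14, 56258838 to 56262260, minus strand) was the member with the largest change on day 1. It had 2, 1, 3, and 1 counts in sham, 49, 14, 29, and 6 on day 1 AMI, and 10, 8, 15, and 46 on day 7 AMI. Sham hearts were at or under the floor and did not overlap either AMI group, while the AMI hearts spread widely, 9.90-fold between replicates 1 and 4 of day 1. Means were 0.0847 ± 0.0495 CPM in sham, 0.857 ± 0.749 CPM in day 1 AMI, and 0.684 ± 0.598 CPM in day 7 AMI. The log2 FC against sham was 3.27 ± 0.89 on day 1 (adjusted p = 0.00926) and 2.98 ± 0.91 on day 7 (adjusted p = 0.0110). Both calls were lost in limma on log2(TPM + 1). With sham and day 1 AMI hearts fitted alone, *Gzmb* was under the filter and not tested. Sham held 7 counts in all, and the ratio of summed counts had a 95% interval of 4.56 to 24.9 on day 1 and 3.87 to 21.5 on day 7. Day 7 against day 1 gave -0.29 ± 0.62 (adjusted p = 0.727), and 0.40 without day 1 AMI replicate 1, so no direction was resolved between the AMI groups.

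*Gzma* (chromosome 13, 113093825 to 113100981, minus strand), encoding granzyme A, had 3, 8, 10, and 1 counts in sham, 26, 18, 28, and 10 on day 1 AMI, and 27, 18, 22, and 40 on day 7 AMI. In CPM, day 1 AMI replicate 4 fell among the sham hearts, and the day 7 AMI hearts were above all of them. Levels were 0.255 ± 0.192 CPM in sham, 0.691 ± 0.320 CPM in day 1 AMI, and 0.925 ± 0.297 CPM in day 7 AMI. *Gzma* rose on day 1 (log2 FC 1.40 ± 0.52, adjusted p = 0.0436) and on day 7 (1.83 ± 0.51, adjusted p = 0.00645). The day 1 call was lost in 6 of 8 fits without a heart (sham replicate 1, 2, or 4, or day 1 AMI replicate 1, 2, or 3), with adjusted p up to 0.116. The day 7 call held in each. The 2 AMI groups differed by 0.44 ± 0.43 (adjusted p = 0.427).

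*Nkg7* (chromosome 7, 43437073 to 43438249, plus strand) had 6, 4, 5, and 4 counts in sham, 36, 15, 22, and 5 on day 1 AMI, and 28, 14, 34, and 65 on day 7 AMI. In CPM, day 1 AMI replicate 4 was below every sham heart, and replicate 1 was 8.73-fold above replicate 4. The mean went from 0.228 ± 0.0654 CPM in sham to 0.675 ± 0.521 CPM in day 1 AMI and 1.22 ± 0.724 CPM in day 7 AMI. *Nkg7* missed the threshold on day 1 (log2 FC 1.54 ± 0.65, adjusted p = 0.0693) and passed it without day 1 AMI replicate 4, and in DESeq2 (adjusted p = 0.0419). It rose on day 7 (2.42 ± 0.62, adjusted p = 0.00374), without exception when hearts were left out.

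Compared per transcript length, as TPM, the order of the members changed between groups. In sham hearts *Ctla4* was highest at 1.72 ± 0.218 TPM, and its lowest heart (1.46) was above the highest of the next gene, *Nkg7* (0.608 ± 0.305, up to 1.04). The TPM of *Ctla4* was 12.46 to 48.75 times that of *Cd3e* in sham hearts, where *Cd3e* had 1 to 3 counts. That ratio was 1.06 to 5.32 in day 1 AMI and 0.487 to 1.17 in day 7 AMI. Which cells held the *Ctla4* RNA was not tested. In day 7 AMI the order was *Nkg7* (3.76 ± 2.26), *Gzma* (2.43 ± 0.875), *Cd3g* (1.90 ± 0.881), *Cd4* (1.56 ± 0.166), *Cd8a* (1.04 ± 0.197), *Cd3e* (1.01 ± 0.349), *Gzmb* (0.945 ± 0.863), *Ctla4* (0.760 ± 0.286), *Cd3d* (0.695 ± 0.406), and *Foxp3* (0.123 ± 0.114). Neighbors in that order overlapped between hearts, except that the lowest *Cd4* heart (1.37 TPM) was just above the highest *Cd8a* heart (1.33 TPM). Levels in day 1 AMI ran from 0.050 ± 0.0346 TPM for *Foxp3* to 1.93 ± 1.56 TPM for *Nkg7*.

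Hearts of the same group differed in the same direction for several members. On day 1, replicates 1 and 3 were both above replicates 2 and 4 for 7 of the 10 members, the exceptions being *Cd3d*, *Cd3g*, and *Foxp3*. This split was seen after the values were examined, and *Ctla4*, which was lower after AMI, was among the 7. It was present for 9 of 19 tested genes of the T cell receptor and its signaling, such as *Trac*, the constant part of the alpha chain (1.26 and 1.18 CPM beside 0.239 and 0.599 CPM), and absent for the other 10, such as *Trbc2* (0.994 and 0.425 CPM beside 0.716 and 0.0946 CPM) and *Cd247*. It was also present for 7 of 10 cytotoxic and NK cell genes and for 6 of 8 B and plasma cell genes. It was present for 0 of 7 pan-leukocyte genes, 0 of 7 monocyte and macrophage genes, and 0 of 6 neutrophil genes. Other T cell lists showed it for 1 of 11 regulatory T cell and checkpoint genes, 1 of 3 T helper genes, and 0 of 2 gamma delta and innate-like genes. Further counts were 1 of 6 dendritic cell, 1 of 5 mast cell, 2 of 3 thymocyte, 0 of 6 erythroid, and 1 of 7 cardiomyocyte genes. The share of all tested genes with this split was not counted. *Ptprc*, which encodes the pan-leukocyte antigen CD45, was at 28.8 and 24.1 CPM in replicates 1 and 3 beside 32.2 and 27.2 CPM. On day 7, replicate 4 was the highest heart for 8 of the 10 members, and its *Ptprc* level of 61.3 CPM was also the highest. Its part in the members' levels was not tested, and the day 7 calls against sham held without it.

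**Figure D3:**
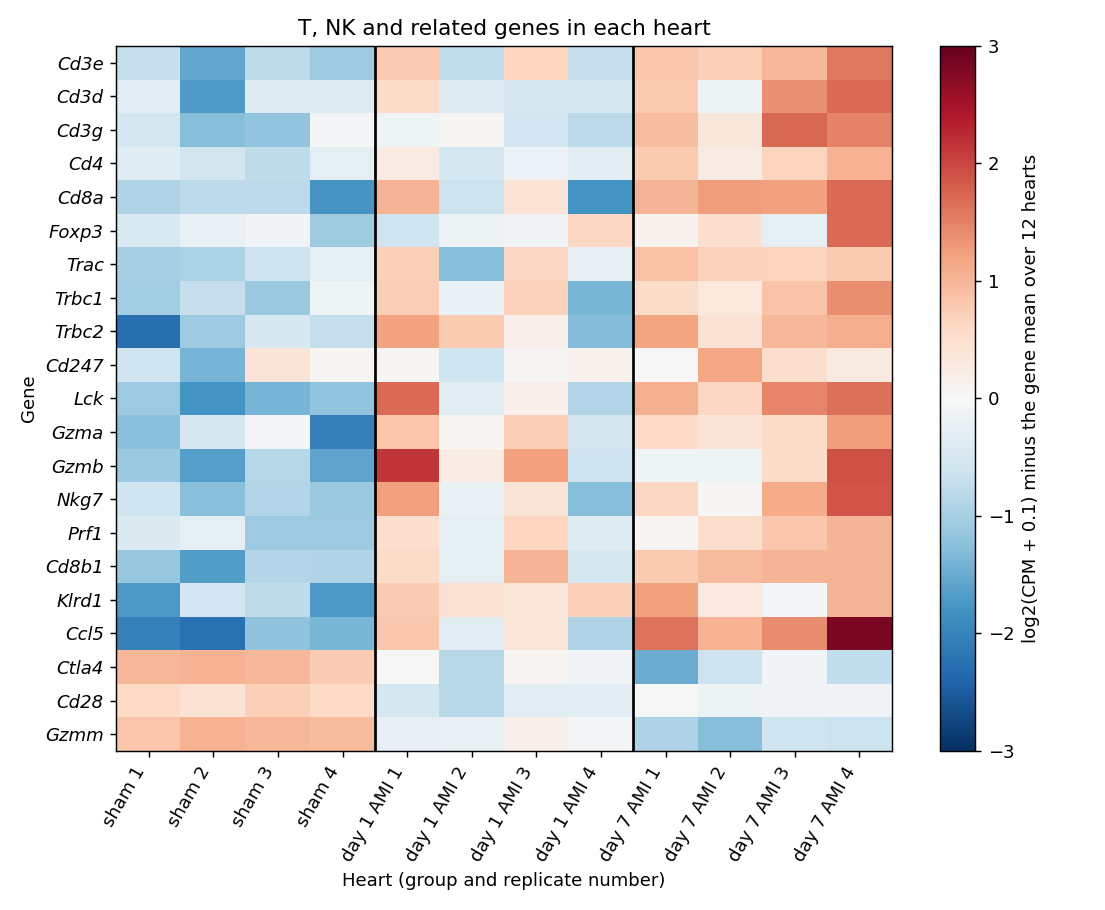
Level of the 10 genes and of 11 related genes (rows) in each of the 12 hearts (columns, with lines between groups), as log2(CPM + 0.1) minus the mean of the gene. Day 1 AMI replicates 1 and 3 are redder than replicates 2 and 4 for *Trac*, *Gzmb*, and *Nkg7* but not for *Trbc2* or *Cd247*, and the bottom rows *Ctla4*, *Cd28*, and *Gzmm* are reddest in sham.

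*Ptprc* itself rose, with log2 FCs of 1.56 ± 0.20 on day 1 (adjusted p = 7.65e-05) and 2.25 ± 0.20 on day 7 (adjusted p = 7.01e-07). The members were therefore also set against it. Per 1000 *Ptprc* counts, the 3 CD3 chains together made 44.9 ± 25.1 counts in sham, 29.6 ± 13.6 on day 1 AMI, and 52.7 ± 24.3 on day 7 AMI, and the 3 groups overlapped. *Nkg7* stood at 24.7 ± 7.37, 24.4 ± 18.6, and 26.6 ± 12.3, again with overlap. *Gzmb* had 9.65 ± 7.31 in sham, 31.1 ± 26.7 on day 1 AMI, and 14.3 ± 8.81 on day 7 AMI, and the day 1 AMI hearts ran from 6.95 to 65.2 around a sham range of 3.95 to 20.3. Relative to *Ptprc*, then, these genes did not separate the groups.

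By the same measure *Cd4* stood at 104 ± 24.3 in sham hearts, 43.9 ± 12.4 on day 1 AMI, and 52.8 ± 10.8 on day 7 AMI. Its sham hearts, at 84.4 to 137, were above every AMI heart, the highest of which was 68.8. *Ctla4* went from 288 ± 66.4 to 41.9 ± 14.9 and 19.9 ± 12.9, also without overlap between sham and AMI. *Cd3g* overlapped between sham and both AMI groups, with 5.79 to 11.1 on day 1 AMI below 12.6 to 41.7 on day 7 AMI. The other members overlapped between each pair of groups. These ratios are descriptions without a test, since the sham hearts held between 148 and 253 *Ptprc* counts and few counts of most members. Because *Ptprc* itself rose, a gene that stayed flat or rose less than *Ptprc* would fall on this measure. *Cd4* fell on it although it was called higher than sham on day 7 (log2 FC 1.28). The share of all tested genes with sham hearts above every AMI heart on this measure was not counted.

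**Figure D4:**
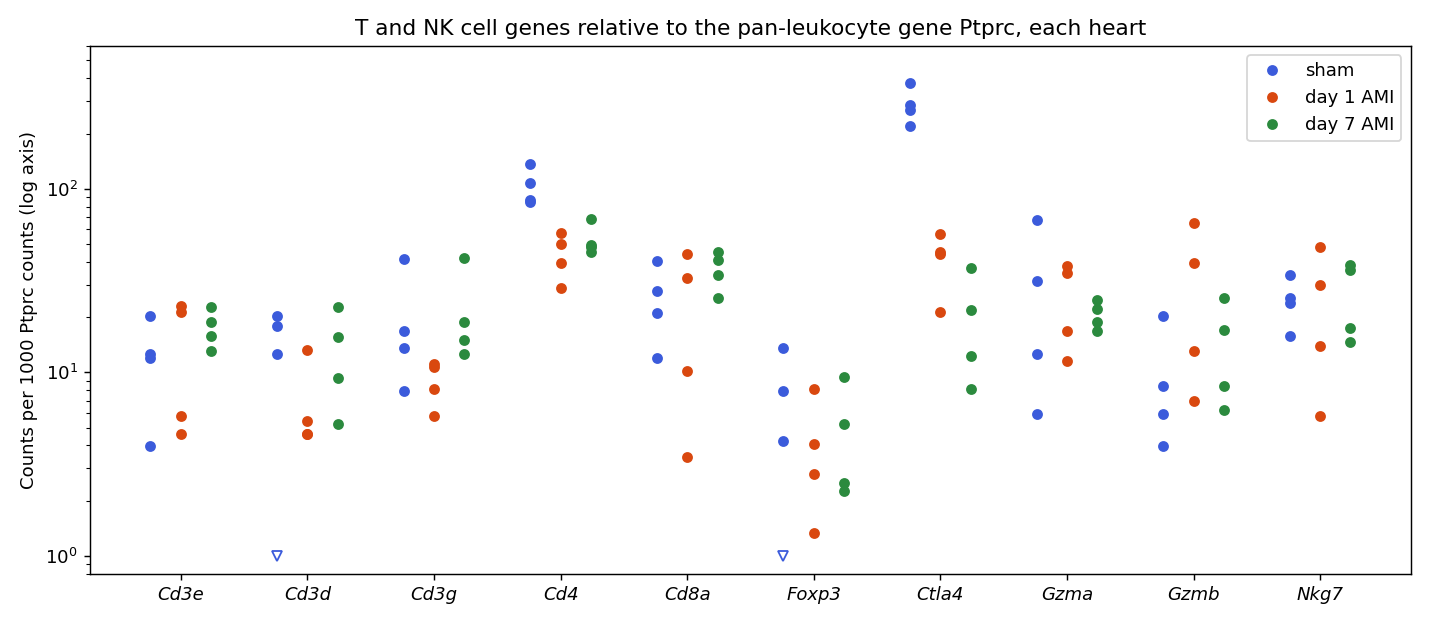
Counts of each gene per 1000 *Ptprc* counts (vertical axis, logarithmic) in each heart, colored by group, with open triangles at the bottom for hearts at 0 counts. Among these genes, *Cd4* and *Ctla4* are those whose sham hearts lie apart from and above the AMI hearts, and *Ctla4* falls from a mean of 288 in sham to 19.9 in day 7 AMI. *Ptprc* itself rose after AMI, so a gene that rose less would fall on this axis.

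Other genes of the T cell receptor and its signaling were counted from a list of 23 genes in the files, of which 19 passed the filter. On day 1, 8 were called higher and 1 lower than sham, and on day 7, 12 higher and 0 lower, with median log2 FCs of 1.08 and 1.91. Of all tested genes, 7.79% were higher and 2.98% lower on day 1, and 15.3% and 5.88% on day 7. Without a heart, 5 to 9 of the 19 were higher on day 1 and 11 to 12 on day 7. On day 7 the largest changes were in *Lck* (3.08 ± 0.61, adjusted p = 0.000580), the interleukin-7 receptor gene *Il7r* (2.84 ± 0.36, adjusted p = 1.36e-05), and the surface receptor genes *Cd5* (2.78 ± 0.58, adjusted p = 0.000804) and *Cd6* (2.62 ± 0.50, adjusted p = 0.000456). The receptor chains *Trac* (1.65 ± 0.43, adjusted p = 0.00416), *Trbc1* (1.98 ± 0.60, adjusted p = 0.0105), and *Trbc2* (2.52 ± 0.66, adjusted p = 0.00426) were higher on day 7. *Trbc1* and *Trbc2* are near-identical copies that may share reads. *Cd247*, the zeta chain of the CD3 complex, had a log2 FC of 0.85 ± 0.38 on day 7 (adjusted p = 0.0687) and did not pass. The gene called lower on day 1 was *Cd28*, the costimulatory receptor whose gene ends 113641 bases before *Ctla4*, at -1.11 ± 0.15 (adjusted p = 0.000107). On day 7 *Cd28* stood at -0.70 ± 0.15 (adjusted p = 0.00108), short of a FC of 2.

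Among 23 cytotoxic and NK cell genes outside the members, 10 passed the filter. On day 1, 7 were called higher and 1 lower, beside 7.79% and 2.98% of all tested genes. On day 7, 9 were higher and 1 lower, beside 15.3% and 5.88%. Without a heart, 5 to 8 were higher on day 1 and 7 to 10 on day 7, of 11 to 13 tested. The day 1 call of *Klrk1* was lost in 7 of 8 such fits (adjusted p up to 0.121). The day 7 calls of *Tbx21* and *Ctsw* were lost in 5 and 3 of 8 (adjusted p up to 0.1105 and 0.0594). *Ccl5*, a chemokine of activated T and NK cells, had the largest day 7 change (3.92 ± 0.53, adjusted p = 2.29e-05), followed by *Cd7*, a surface protein of T and NK cells (3.24 ± 0.56, adjusted p = 0.000189) and the NK receptor gene *Klrd1* (2.86 ± 0.65, adjusted p = 0.00165). *Tbx21*, encoding the transcription factor T-bet, led on day 1 (3.09 ± 1.03, adjusted p = 0.0268), a call lost in 5 of 8 fits without a heart (sham replicate 2, 3, or 4, or day 1 AMI replicate 1 or 3), with adjusted p up to 0.0799. *Prf1*, encoding perforin, stood at 1.17 ± 0.49 on day 1 (adjusted p = 0.0685) and rose on day 7 (1.73 ± 0.47, adjusted p = 0.00574). *Gzmm*, encoding granzyme M, was the gene called lower at both times, at -1.06 ± 0.17 (adjusted p = 0.000320) and -1.85 ± 0.18 (adjusted p = 1.20e-06). The NK receptor genes *Ncr1*, with 0 to 11 counts in a heart, and *Klrb1c*, with 0 to 20, were under the filter.

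Of 17 regulatory T cell and checkpoint genes, 11 passed the filter, with 4 higher on day 1, 5 higher on day 7, and 0 lower at either time. Of all tested genes, 7.79% and 15.3% were higher and 2.98% and 5.88% lower at these times. The day 7 genes were *Havcr2* (2.94 ± 0.39, adjusted p = 1.99e-05), *Cd80* (2.89 ± 0.46, adjusted p = 9.33e-05), *Icos* (1.97 ± 0.53, adjusted p = 0.00508), *Lag3* (1.53 ± 0.38, adjusted p = 0.00315), and *Cd86* (1.03 ± 0.22, adjusted p = 0.00101), which fell short of 2-fold without sham replicate 2 or 3 or day 7 AMI replicate 4. *Cd80* and *Cd86* encode the ligands of CTLA-4 on antigen-presenting cells, and *Havcr2* is also expressed by myeloid cells. *Il2ra*, the alpha chain of the interleukin-2 receptor, and *Ikzf2*, encoding Helios, both used to mark regulatory T cells, had log2 FCs of -0.67 ± 0.32 (adjusted p = 0.0873) and -0.58 ± 0.15 (adjusted p = 0.00454) on day 7 and were not called. Other genes of such cells, *Tnfrsf18* (0.54 ± 0.27, adjusted p = 0.0990) and *Ikzf4* (0.10 ± 0.33, adjusted p = 0.806), were not called on day 7 either. Higher on day 1 in this list were *Tnfrsf9* (3.26 ± 0.78, adjusted p = 0.00440) and *Havcr2* (2.17 ± 0.40, adjusted p = 0.000783). *Cd80* (1.64 ± 0.48, adjusted p = 0.0141) and *Lrrc32* (1.07 ± 0.18, adjusted p = 0.000387) were too, with both calls lost without day 1 AMI replicate 2. On day 7, *Tnfrsf9* (1.53 ± 0.86, adjusted p = 0.140) and *Lrrc32* (0.72 ± 0.18, adjusted p = 0.00287) were not called. Among 12 T helper genes, 3 passed the filter, and the chemokine receptor gene *Cxcr3* was higher at both times (1.68 ± 0.51, adjusted p = 0.0171, and 3.45 ± 0.46, adjusted p = 2.08e-05), with the day 1 call lost without sham replicate 3 or day 1 AMI replicate 1 (adjusted p up to 0.0563). Of 9 gamma delta and innate-like T cell genes, 2 passed, with *Zbtb16*, encoding the transcription factor PLZF, lower on day 7 (-2.00 ± 0.45, adjusted p = 0.00144). Sham replicate 2 stood apart for *Zbtb16*, at 111 CPM beside at most 36.7 CPM in the other sham hearts, and without it the log2 FC was -1.13 (adjusted p = 0.000870), still called. In the same list and under the filter, *Tcrg-C1* had 0 to 1 counts in sham, 0 to 2 on day 1 AMI, and 3 to 13 on day 7 AMI, and *Cd163l1* had 0 to 4, 2 to 8, and 4 to 32.

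Markers of other cells were counted in the same way, beside the shares of all tested genes called higher (7.79% on day 1 and 15.3% on day 7) and lower (2.98% and 5.88%). The 7 pan-leukocyte genes were called higher on day 1 and on day 7, with summed levels of 67.9 to 113 CPM in sham, 246 to 353 CPM in day 1 AMI, and 249 to 411 CPM in day 7 AMI. Of 7 monocyte and macrophage genes, 4 were higher on day 1 and 6 on day 7, with sums of 214 to 302, 409 to 588, and 635 to 942 CPM. Of 6 tested dendritic cell genes, 3 were higher at each time, and of 6 neutrophil genes, 3 were higher on day 1 while 1 was higher and 1 lower on day 7. Of 5 tested mast cell genes, 1 was higher on day 7, and of 8 tested B and plasma cell genes, 1 and 2 were higher, led by *Jchain* at 5.88 ± 0.82 on day 7 (adjusted p = 2.98e-05). Of 3 tested thymocyte genes, *Cd8b1* was higher, and *Rag1*, *Rag2*, and *Dntt*, which define thymocytes, had at most 1 count in a heart. Sums of 7 cardiomyocyte genes were 65620 to 78140 CPM in sham, 41270 to 52060 CPM in day 1 AMI, and 36260 to 41360 CPM in day 7 AMI, with 5 genes lower on day 7. Of 6 erythroid genes, 4 were lower on day 1 and 3 on day 7, and sham replicate 2 had 4529 CPM beside 517 to 1220 CPM in the other sham hearts. The part of these cells in the members' levels was not tested. Without sham replicate 2, the count of members called higher was 1 on day 1 and 8 on day 7, where *Cd3d* passed the filter. Without that heart, the genes of the T cell receptor list called higher were 6 of 19 tested on day 1 and 11 of 19 on day 7, those of the cytotoxic and NK cell list 5 and 7 of 13 tested, and the erythroid genes called lower 0 and 0.

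The genes with the course most like that of the CD3 chains were ranked by Pearson r of log2 CPM with the summed CD3 level over the 12 hearts, among 15298 tested genes outside the members. The 10 with the highest r were *Ikzf3* (0.947), *Igha* (0.927), *Ccl5* (0.927), *Prnd* (0.925), *Lck* (0.924), *Foxd2os* (0.920), *Sec24b* (0.919), *Ttf2* (0.915), *Poli* (0.913), and *Il7r* (0.907). *Ikzf3*, the lymphocyte transcription factor Aiolos, rose from 0.364 ± 0.207 CPM in sham to 0.616 ± 0.354 CPM in day 1 AMI and 1.32 ± 0.158 CPM in day 7 AMI. Of the members outside the sum, *Cd4* (0.892) and *Nkg7* (0.890) were closest and *Ctla4* had the opposite sign (-0.684), as did *Gzmm* (-0.778). The 12 hearts fall into 3 groups, so these r values mainly follow the differences between groups.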

How the data were processed

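RNA of 12 whole hearts was grouped by GEO's labels as sham or by the day after AMI, 1 or 7. The authors used Cutadapt on paired-end reads, then STAR 2.4.0j for alignment to Ensembl GRCm38 (mm10), and deposited raw counts, which are whole reads per gene without normalization. They also deposited TPM from RSEM, rounded to 2 decimals. CASAVA 1.8 is named in the submitters' processing notes. The tool behind the counts and the strand counted are not given in the sources used here.

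Counts of 12 libraries, between 23204551 and 32166517 in depth, were fitted together in edgeR 4.0.16 (R 4.3.3) with TMM, filterByExpr, and the quasi-likelihood test, and p-values were adjusted by Benjamini-Hochberg over 15306 genes. A DEG needed a FC of at least 2 with an adjusted p below 0.05. The standard error is the log2 FC divided by the square root of F. *Cd3d* and *Foxp3* were taken from the fit without the filter. Exon overlaps, transcripts, and 75-base stretches came from GENCODE M21 (GRCm38). Intervals are 95% Clopper-Pearson and cover counting error only. Libraries of a group differed by a chi-square per degree of freedom of at least 8.84, so none was a repeat.

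Alternatives were DESeq2 1.42.0, limma 3.58.1 on log2(TPM + 1) and log2(TPM + 0.1) over 18656 genes, RLE size factors, library sizes alone, no filter, only the 2 groups compared, a replicate block, no FC minimum, and leaving out each heart. The members and the 14 other lists were chosen with earlier results of these data known, and 1 listed gene was not analysed here. By rule, the members, their direct partners (such as the receptor chains, *Prf1*, *Cd8b1*, and *Ptprc*), up to 4 called genes per list with the largest change, and the 10 genes closest to the CD3 sum are named. Other genes, such as *Cd28*, *Gzmm*, *Cd86*, *Zbtb16*, *Tcrg-C1*, *Cd163l1*, *Tnfrsf18*, *Ikzf4*, *Trbc2* and *Cd247* by heart, and the genes overlapping *Foxp3*, were named after their values were seen. The same holds for *Klrk1*, *Ctsw*, *Tnfrsf9*, and *Lrrc32*. The fits were also run on simulated counts with the same extra spread between hearts for every gene. Members such as *Gzmb* spread widely between hearts, so the simulation does not show how well their changes are called.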

Additional observations from a re-analysis of the deposited data

Results flagged for a closer look

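For each member and group, 30 sets of 4 hearts in all, the highest or lowest heart was compared with the others by Dixon's gap. In 4 of the 30 sets the gap passed Dixon's 95% limit. For independent and normally spread values, chance alone gives about 1 in 20. The sets share the same hearts and several rest on a few whole counts, so that rate does not show an excess here. *Cd3d* was at 0.0 CPM in sham replicate 2, below 0.143 to 0.157 CPM in the other sham hearts, a difference of 3 counts. *Cd3d* was at 0.382 CPM in day 1 AMI replicate 1, above 0.126 to 0.149 CPM in the other hearts. *Cd8a* was at 0.0956 CPM in sham replicate 4, below 0.261 to 0.291 CPM. *Ctla4* was at 2.29 CPM in sham replicate 4, below 2.71 to 2.79 CPM and still above every AMI heart.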

How the results depend on the processing

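On day 7 against sham, the 7 members called higher and the 1 called lower were called in each fit without a heart, and the day 7 AMI count of higher members fell to 3 and that of lower members to 0 in limma on log2(TPM + 1), where the added 1 exceeds most levels. On day 1, the 3 members called higher became 5 under library sizes alone, 0 when only the 2 groups compared were fitted (*Cd3e* and *Gzmb* were then under the filter and *Gzma* had adjusted p = 0.0652), 0 in limma on log2(TPM + 1), and between 1 and 5 without a heart, 1 without sham replicate 2 or 4 or day 1 AMI replicate 1 or 3 and 5 without day 1 AMI replicate 4. The 1 called lower became 0 under library sizes alone, in limma on log2(TPM + 1), and in limma on log2(TPM + 0.1). Between day 7 and day 1, the 2 called higher became 4 under library sizes alone, 0 in limma on log2(TPM + 1), 4 in limma on log2(TPM + 0.1), and between 1 and 6 without a heart, 6 without day 1 AMI replicate 1 and 1 without day 1 AMI replicate 2 or 4 or day 7 AMI replicate 3 or 4. The log2 FC of *Gzmb* between day 7 and day 1 changed sign to 0.0064 in limma on log2(TPM + 0.1) and to 0.40 without day 1 AMI replicate 1, with values from -1.11 to 0.40 without a heart. Where a filter or the added constant does not show it, the cause was not tested. No pairing of hearts by replicate number was seen: over 12 pairs, deviations from the group means correlated at -0.244 to 0.229, over 0.1 in 4. Pairs with different numbers ranged from -0.271 to 0.250. The pairs of replicate 3 were at 0.122, 0.127, and 0.149, and a shared batch was not tested. With a replicate block, *Gzma* on day 1 was 1.38 (adjusted p = 0.0687) and no longer called, *Cd3e* between day 7 and day 1 was 1.19 (adjusted p = 0.0462) and called, and the counts of called members were 2 and 1 on day 1, 7 and 1 on day 7, and 3 and 0 between them. Few counts limit the members in sham, where *Cd3e*, *Cd3d*, *Foxp3*, and *Gzmb* had 0 to 3 counts in each heart. The fits of the other lists without each heart were added after the data were examined.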

Other observations

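*Trdc*, the constant part of the T cell receptor delta chain, was at 0 counts in the 4 sham hearts. It had 6, 7, 1, and 8 counts in day 1 AMI and 6, 7, 14, and 20 in day 7 AMI. Against a floor of 3 counts in each sham library, its day 7 AMI level was at least 2.91-fold higher than sham, and it was under the filter and not tested.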
